A study of Mus musculus with 30 samples.

Results

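Cohesin is a ring-shaped complex that holds DNA strands together and extrudes chromatin loops. SMC1 and SMC3 are its long coiled-coil ATPase arms, and RAD21 is the kleisin subunit that closes the ring. On mammalian chromosomes cohesin accumulates where CTCF, a zinc finger protein, stops it, and weaker accumulation is known at enhancers and promoters. BORIS (CTCFL) is a testis relative of CTCF with a similar zinc finger array but different ends. The regions described here were called for cohesin in mouse cells without BORIS and in none of the lists from cells with BORIS.

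The members were chosen by the calls themselves. The 6 cohesin region lists from NIH3T3, an immortalized mouse embryonic fibroblast line, were merged on chromosomes 1 to 19 by joining regions that overlap or touch. A member had a region in all 3 lists from empty-vector (EV) cells, one for each of the antibodies to SMC1, RAD21 and SMC3, and in none of the same 3 lists from BORIS cells. This rule kept 2371 of 146915 merged regions (1.61%), which is 3.69% of the 64201 merged regions called with all 3 antibodies in EV cells. That a member lacks a call in BORIS cells is therefore the choice and not a finding.

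EV cells stably carried a CpG-free control plasmid that expresses beta-galactosidase. BORIS cells stably carried the same kind of CpG-free plasmid expressing BORIS, and they were a single clone, clone 2. The growth conditions, age in culture and control of these libraries were not given in the sources used here. Snf2h, the ATPase of ISWI nucleosome remodellers, was mapped in CH12 B lymphoma cells, a mouse line, in wild-type form and after Cas9 had removed zinc fingers 9 to 11 from both CTCF copies. Each of these 8 groups had 1 library out of 30 samples in the series, so no difference below has a replicate check and no test or p-value is given. Intervals are exact 95% intervals for shares (Clopper-Pearson) and medians (binomial order statistics), and they cover counting error only.

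The EV lists were 106420 (SMC1), 84433 (RAD21) and 100708 (SMC3) regions long, and the BORIS lists 102207, 82235 and 107735. Read totals were not among the values used here. The genome-wide background, taken as the 1st percentile of the local background rate over summits, lay between 0.908 and 1.03 fragments per position in the 6 lists. Coordinates below are those of the lists, counted from 1. The submitters' processing notes list the mouse build mm9. The gene and promoter tables at hand were of GRCm38, so no member was assigned to a gene and no sequence is printed.

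EV-only regions had low cohesin signal with each of the 3 antibodies, whose joint calls are the rule that chose them. The pileup at a summit is the number of sequenced fragments stacked over the position of highest density in a region. Its median over the 2371 members was 15 with SMC1 (interval 14 to 15), 13 with RAD21 (13 to 13) and 15 with SMC3 (15 to 15). Regions called in all 6 lists, of which there were 50858, had EV medians of 37, 36 and 40. The deposited fold over the local background had a median of 5.62 with SMC1, 5.24 with RAD21 and 5.50 with SMC3 in the members, and 12.5, 13.2 and 13.8 in regions of all 6 lists. RAD21 was the lowest of the 3 in pileup and in fold, by a margin that is small beside the distance to regions of all 6 lists.

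**Figure D1:**
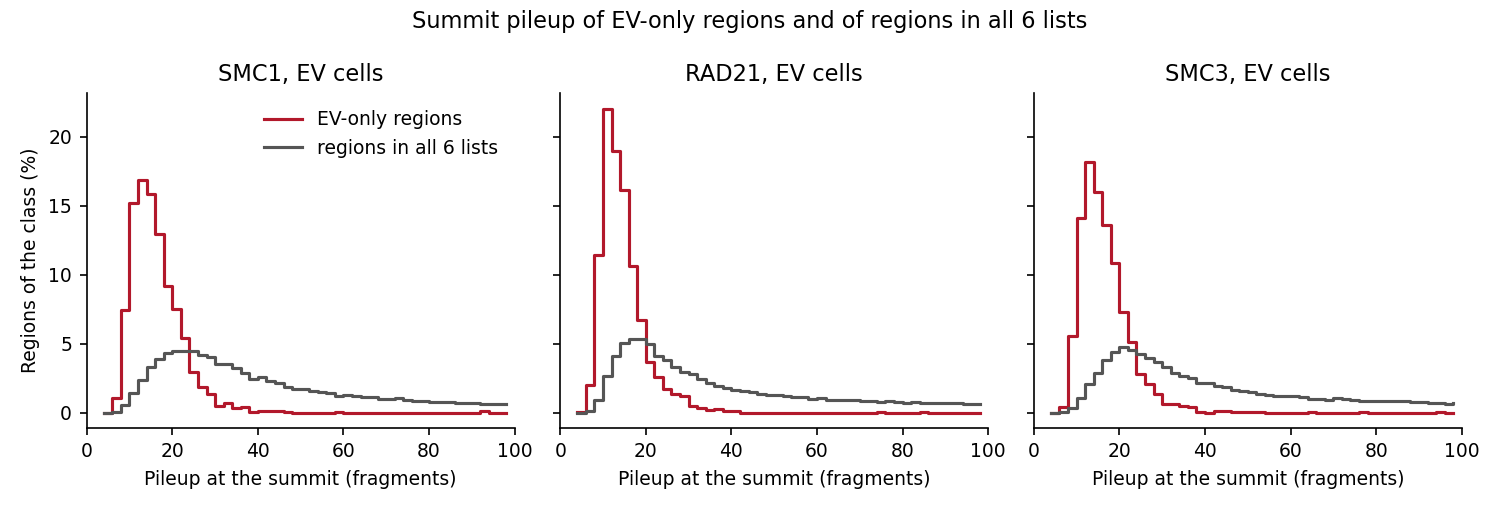
Summit pileup in fragments (x axis) against the share of regions of a class (y axis), in steps of 2 fragments, for SMC1, RAD21 and SMC3 in EV cells. EV-only regions (red, n = 2371) have medians of 15, 13 and 15, and regions of all 6 lists (grey) have medians of 37, 36 and 40 with a long tail to the right, of which pileups up to 100 are drawn.

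Being private to EV cells went with low pileup in the weakest antibody. Of the regions called with all 3 antibodies in EV cells, 21.6% (19.3 to 24.1) were private where the lowest of the 3 pileups was 5 to 8 fragments. The share was 14.8% (13.9 to 15.7) at 9 to 11 fragments, 7.44% (6.96 to 7.95) at 12 to 15 and 2.62% (2.34 to 2.93) at 16 to 21. It was 0.372% (0.278 to 0.487) at 22 to 39 fragments, or 52 of 13989 regions. Only 2 of the 19990 regions with at least 40 fragments with every antibody were private. They lay 3870 bp apart on chromosome 11, at 3036858 to 3037094 and 3040965 to 3041241. Their pileups of 75 to 94 fragments stood on backgrounds of 32.6 to 41.4, so that their folds were only 1.96 to 2.53.

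The BORIS-only class, built by the mirror rule, was larger. It held 3544 regions, 2.41% of all merged regions and 5.66% of the 62599 called with all 3 antibodies in BORIS cells. Its median BORIS pileups were 16 with SMC1, 13 with RAD21 and 18 with SMC3. Its share of the regions called with all 3 antibodies in BORIS cells also fell with the lowest pileup. The share was 23.0% (20.5 to 25.5) at 5 to 8 fragments and 15.7% (14.9 to 16.6) at 9 to 11, with intervals that overlapped those of the EV-only class. It was higher than the EV-only share at 12 to 15, with 11.1% (10.6 to 11.7), at 16 to 21, with 4.83% (4.47 to 5.22), and at 22 to 39, with 0.969% (0.817 to 1.14).

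The order of members by pileup differed between subunits. Across the 2371 members the Spearman correlation of pileups was 0.383 between SMC1 and RAD21, 0.463 between SMC1 and SMC3 and 0.503 between RAD21 and SMC3. Across regions of all 6 lists the same correlations were 0.847, 0.907 and 0.904. These are descriptions across regions that share libraries, and the members span a narrower range of pileups.

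How low the BORIS signal at a member would have had to be to stay uncalled was estimated from the local background. The local background rates of the 6 lists rose and fell together. Over 676 regions of all 6 lists whose summits all lay within 10 bp, the background rates had Spearman correlations of 0.975 to 0.984 between lists of the same line and 0.973 to 0.978 between lists of different lines. A single background track scaled to each library would give this too, and whether one was used is not given in the sources used here. The EV background at a member's summit was scaled to the BORIS library, by 1.03 with SMC1, 1.01 with RAD21 and 0.986 with SMC3. The call limit was then the largest pileup that would not have reached the weakest −log10 p in that BORIS list. Its median was 6 fragments with each antibody. The limit is rough. Among BORIS calls with a −log10 q under 2 in regions with all 3 EV lists, 93.8% of 64 SMC1 summits, 95.7% of 138 RAD21 summits and 96.8% of 93 SMC3 summits lay above it, and it was within 1 fragment of the limit from the BORIS background itself in 48.4 to 52.2% of them.

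The median ratio of the EV pileup to the call limit was 2.25 with SMC1 (2.20 to 2.29), 2.14 with RAD21 (2.00 to 2.17) and 2.33 with SMC3 (2.29 to 2.40). In 976 members (41.2%, 39.2 to 43.2) the EV pileup was at least 2 times the limit with all 3 antibodies. It was at least 3 times the limit in 131 members (5.53%, 4.64 to 6.52) and at least 4 times in 20 (0.844%, 0.516 to 1.3). Members were chosen for calls in all 3 EV lists, so an EV pileup above the limit follows largely from the rule. The ratios are to a limit and not to a measured BORIS pileup. The measured pileup of regions of all 6 lists, which were not chosen for a missing call, also fell from EV to BORIS cells. Its median log2 ratios were −0.36 with SMC1, −0.34 with RAD21 and −0.28 with SMC3, which are not on the scale of the ratios to the limit. The limit assumes that a stretch above it was long enough to be reported, and narrower peaks above the limit would also be missing from a list.

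The members with the highest ranks are given below with their EV pileups and call limits. They were picked for strong EV calls, so their distance above the limit is a description of that choice. On chromosome 14 at 25759442 to 25759695, the EV pileup was 34 with SMC1, 39 with RAD21 and 46 with SMC3, and the call limit was 6 with each antibody. The 3 summits lay within 26 bp, the nearest region of any BORIS list was 5.61 kb away, and the nearest other member 29.0 kb away. This region ranked first by the rule used for naming, which takes the lowest of the 3 percentile ranks among the 1900 members at most 3 kb wide with no BORIS region within 1 kb.

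On chromosome 6 at 84528935 to 84529286 the pileups were 34, 33 and 50 for SMC1, RAD21 and SMC3, and the limits were 6, 5 and 6. The summits lay within 20 bp. This member was isolated, with the nearest other member 1100 kb away and the nearest BORIS region 8.11 kb away. The nearest region of all 6 lists was higher in BORIS cells, with a log2 ratio of 0.83 after centring on all such regions. Over the 12 members named by this rule, that neighbour was below 0 in 9, and the median was −0.16. The region at 25759442 had −1.13.

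On chromosome 14 at 79701179 to 79701640 the pileups were 44, 37 and 48, against limits of 8, 8 and 6. Its summits were 55 bp apart at most. It was the only one of the 12 named strongest members that overlapped a Snf2h region, and it did so in wild-type but not in mutant CH12 cells.

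The member on chromosome 14 at 46471294 to 46471557 had pileups of 22, 29 and 27 against limits of 5, 5 and 5. The nearest other member was 26.6 kb away. On chromosome 9 at 30362575 to 30362854 the pileups were 23, 33 and 22 against limits of 5, 4 and 4. It lay in sparse surroundings, 74.0 kb from any BORIS region, yet another member was only 3.35 kb away. On chromosome 5 at 19523980 to 19524193 the pileups were 22, 25 and 44 against limits of 5, 5 and 5, and no BORIS region was called within 165.6 kb.

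On chromosome 8, the members at 123030453 to 123030746 (pileups 24, 28 and 30) and 125221182 to 125221419 (27, 29 and 28) were even across the 3 subunits, with limits of 6 and 7. On chromosome 12 at 111036903 to 111037738, a member 836 bp wide had pileups of 27, 25 and 24. On chromosome 2 at 167353869 to 167354080, SMC3 was the highest, with pileups of 21, 31 and 39. The remaining pair of named strongest members lay on chromosome 18, with pileups of 58, 36 and 64 in the first and 21, 27 and 23 in the second.

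The members closest to the calling threshold show how thin the other end of the class was. The lowest −log10 q of a member was 1.39, for SMC3 on chromosome 7 at 119287548 to 119287953, where the pileup of 13 stood on a background of 4.83. SMC1 and RAD21 were well above the threshold in the same place, with −log10 q values of 10.5 and 10.2. The next members by this measure were on chromosome 2 at 125187426 to 125187831 (SMC3 −log10 q of 1.40, pileup 7) and on chromosome 12 at 8474933 to 8475483 (1.41, pileup 8). Just outside the class were 3810 regions with all 3 EV lists and 1 BORIS list, which was SMC3 in 1745, SMC1 in 1315 and RAD21 in 750 of them. The region on chromosome 2 at 125986315 to 125986507, with EV pileups of 23, 20 and 19, was left out for a single BORIS SMC3 call of −log10 q 1.42 at a pileup of 11. On chromosome 8 at 75799873 to 75800275 (EV pileups 31, 11 and 16) a BORIS SMC1 call of 1.45 did the same, and on chromosome 3 at 25457580 to 25457741 (10, 9 and 14) one of 1.5.

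Members were narrow. The merged width had a median of 234 bp (229 to 240), with quartiles of 191 and 324 bp and a maximum of 1150 bp. It was 217 bp (215 to 219) in the BORIS-only class and 458 bp (455 to 460) in regions of all 6 lists. Merging over 6 lists widens a region, and private regions merge only 3. Within single lists the median member width was 177 bp with SMC1, 160 bp with RAD21 and 177 bp with SMC3, against 327, 304 and 330 bp in regions of all 6 lists. These single-list widths were not matched for pileup, and the narrowest in members were 116, 117 and 117 bp. At a lowest pileup of 9 to 11 the median merged width was 223 bp in members and 304 bp in regions of all 6 lists. At 16 to 21 it was 258 and 387 bp. Each list called 1 region per member in nearly all cases, and only 109 members held more than 1 region of any list.

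The 3 subunits peaked at nearly the same place in most members. The largest distance between the SMC1, RAD21 and SMC3 summits had a median of 44 bp (42 to 46), and it was at most 50 bp in 56.6% (54.5 to 58.6) and at most 100 bp in 81.1% (79.5 to 82.7) of members. No pair of subunits stood apart, since the median distance was 28 bp between SMC1 and RAD21, 25 bp between SMC1 and SMC3 and 27 bp between RAD21 and SMC3. The RAD21 summit lay between the other pair, or on one of them, in 33.8% of members (31.9 to 35.7) and in 33.7% of regions of all 6 lists.

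Summits were farther apart than in the BORIS-only class, whose median largest distance was 34 bp (33 to 35). In regions of all 6 lists it was 23 bp in EV and 28 bp in BORIS cells. Summit distance fell with pileup in every class, and at like pileup the gap to regions of all 6 lists was small or reversed. Where the lowest pileup was 9 to 11 the median was 49.5 bp (46 to 53) in members and 46 bp (45 to 48) in regions of all 6 lists. At 16 to 21 it was 32 bp (30 to 37) and 39 bp (38 to 40), and at 22 to 39 it was 25.5 bp (21 to 29) and 26 bp (26 to 27). BORIS-only regions were lower at 9 to 11, with 37 bp (36 to 39), and at 12 to 15, with 32 bp (31 to 34) against 41.5 bp (39 to 45) in members. At 5 to 8 (55 against 49 bp), 16 to 21 (32 against 29 bp) and 22 to 39 (25.5 against 26 bp) the intervals of both private classes overlapped. With a −log10 q of 10 or more required of every list, the medians were 27 bp in both.

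**Figure D2:**
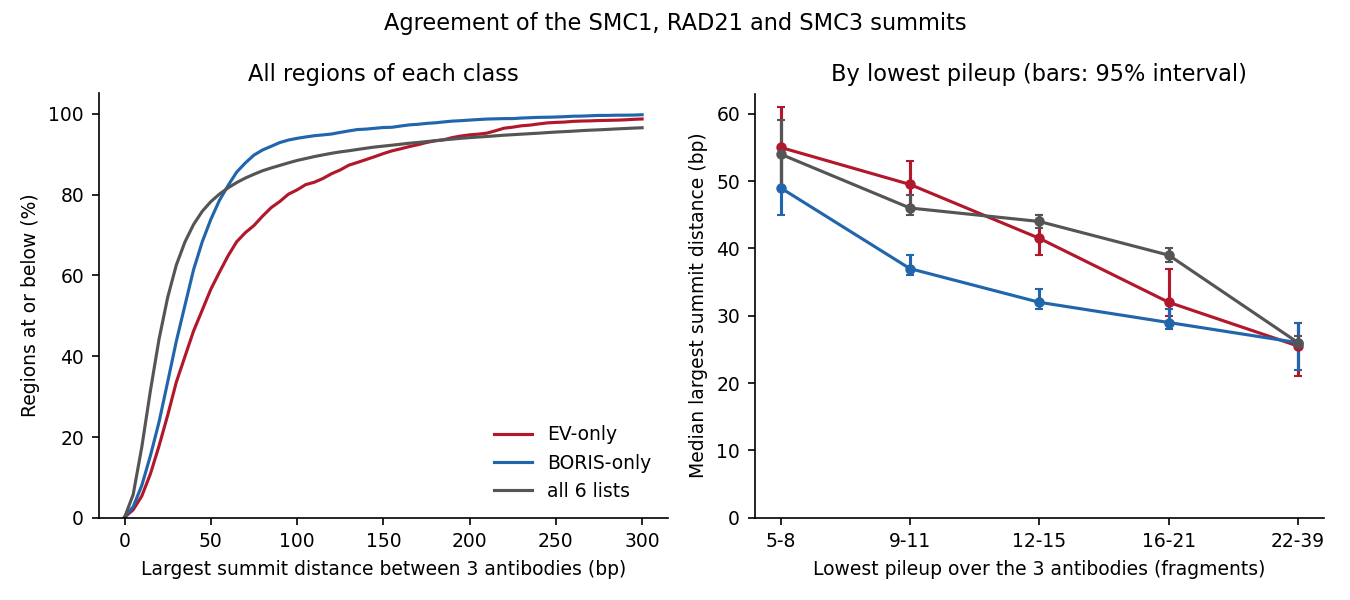
Left, share of regions (y axis, %) whose largest distance between the SMC1, RAD21 and SMC3 summits is at or below the value on the x axis (bp), with regions of all 6 lists measured in EV cells. Right, median of that distance (bp) by the lowest of the 3 pileups, with 95% intervals. EV-only regions (red) fall from 55 to 25.5 bp and end at the value of regions of all 6 lists (grey), and BORIS-only regions (blue) are lower at 9 to 15 fragments.

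Members were also split at a merged width of 300 bp, a value chosen after the widths had been seen. A merged region is the union of the 3 lists, so summits that lie apart widen it and part of the contrast below is built in. The 1665 members of at most 300 bp had summits 35 bp (33 to 37) apart, against 32 bp (31 to 33) in BORIS-only regions of that width. The 706 members over 300 bp (29.8%, 27.9 to 31.7) had summits 96 bp (89 to 104) apart, against 49 bp (46 to 56) in the 553 BORIS-only regions over 300 bp, which made up 15.6% (14.4 to 16.8) of their class.

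In the broader members SMC1 formed the widest region. Its own width had a median of 322 bp, against 254.5 bp for SMC3 and 191 bp for RAD21, and SMC1 was the widest of the 3 in 63.2% of them. In BORIS-only regions over 300 bp SMC3 was the widest in 49.7% and SMC1 in 37.4%. The pileups of broader and focal members were close, with medians of 17 and 14 with SMC1, 13 and 13 with RAD21 and 15 and 15 with SMC3. Broader members stood on higher local background, with a median SMC1 rate of 2.10 against 1.63, and they had a BORIS region within 1 kb more often, in 26.1% (22.9 to 29.5) against 17.2% (15.5 to 19.1). The mirror class differed in the same way, with an EV region within 1 kb of 27.7% (24.0 to 31.6) of its regions over 300 bp and 18.4% (17.0 to 19.8) of the others. Any other merged region lay within 1 kb of 44.1% of broader and 24.5% of focal members.

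Members lay farther from shared cohesin sites than BORIS-only regions did. The nearest region of all 6 lists was a median of 10924 bp away (10206 to 11682), edge to edge. It was within 1 kb of 10.8% (9.58 to 12.1) and within 10 kb of 47.3% (45.3 to 49.3) of members. BORIS-only regions had a median of 7644 bp (7226 to 8067), with 10.5% (9.51 to 11.6) within 1 kb, where the intervals overlapped, and 57.6% (56.0 to 59.3) within 10 kb. The distance depended on the lists used, from 7034 bp without the RAD21 lists to 20514 bp with a −log10 q of 10 or more in every list. In those settings the BORIS-only medians were 6396 and 10809 bp, and the EV-only median was the larger in all 8 settings compared, with intervals that did not overlap. The classes were spread differently over chromosomes, with 273 members and 48 BORIS-only regions on chromosome 14, and 71 and 486 on chromosome 4. Those chromosomes held 1488 and 3557 regions of all 6 lists. None of the settings matched the classes by chromosome, and the part of the contrast that goes with chromosome was not tested. Counting any cohesin call, the nearest other merged region was 2934 bp (2709 to 3109) away.

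Absence from the BORIS lists did not mean an empty neighbourhood in BORIS cells. The nearest region of any BORIS list was a median of 4571 bp (4204 to 4936) away, and 471 members (19.9%, 18.3 to 21.5) had one within 1 kb. BORIS-only regions had an EV region within 1 kb in 19.8% (18.5 to 21.2).

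**Figure D3:**
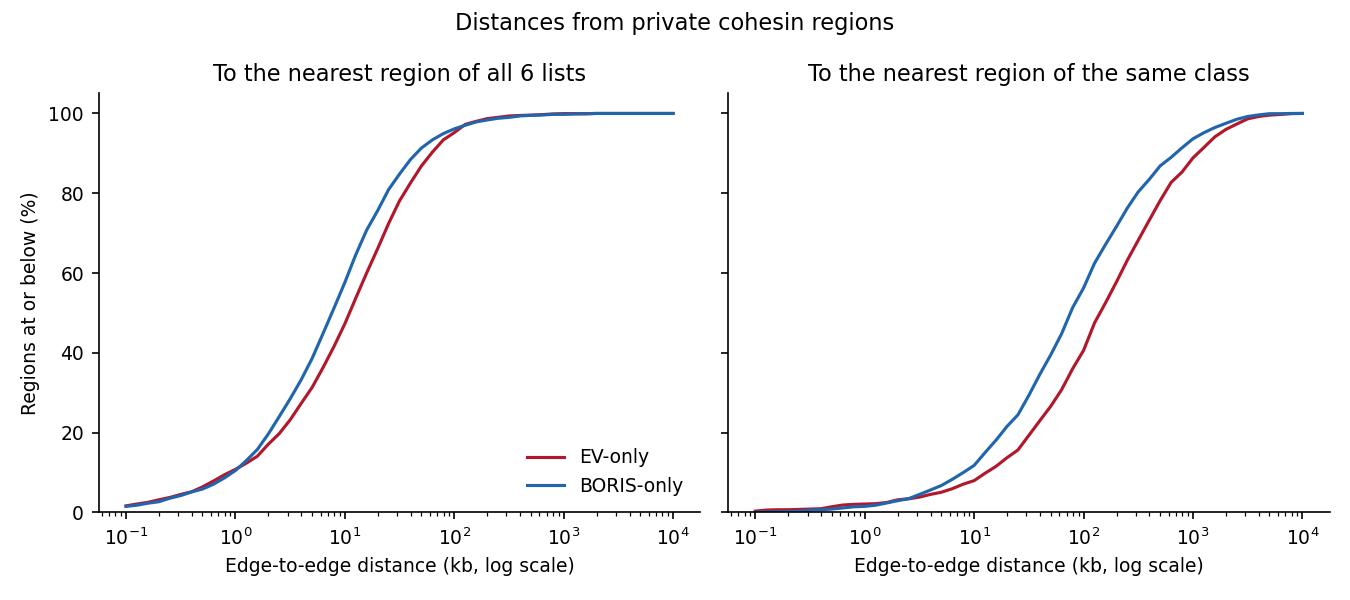
Share of private regions (y axis, %) whose nearest region of all 6 lists (left) or nearest region of the same class (right) is at or below the distance on the log-scaled x axis (kb). EV-only regions (red, n = 2371) lie to the right of BORIS-only regions (blue, n = 3544) around the medians in both panels. The medians are 10924 and 7644 bp on the left and 141829 and 75291 bp on the right. EV-only shares are slightly higher at the shortest distances in both panels and towards the longest on the left.

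Some members came in groups. The nearest other member was a median of 141829 bp away, and 963 members (40.6%, 38.6 to 42.6) had another within 100 kb. The share was 56.3% (54.6 to 57.9) in the larger BORIS-only class, which has more regions over the same chromosomes. The EV-only share followed the number of members and was 9.21% with a −log10 q of 10 or more required of the EV lists, 69.9% with at least 2 antibodies and 66.1% without the RAD21 lists. Counted along the order of regions called with all 3 antibodies in EV cells, which takes out the uneven density of cohesin sites, 16.4% (14.9 to 17.96) of members were next to another member. Of the other regions in that order, 6.74% (6.55 to 6.94) were next to a member. Without chromosomes 7, 8, 12 and 14, which had the most members for their regions, the shares were 12.7% (11.0 to 14.5) and 5.39% (5.19 to 5.59). On chromosome 1, 6 of 134 members (4.48%, 1.66 to 9.49) were next to another, and on chromosome 4, 2 of 71 (2.82%, 0.343 to 9.81). These intervals contain the shares of the other regions there, 6.43% and 3.43%. The interval also contained the share of the other regions on chromosomes 2, 3, 12, 13, 15 and 17, where the member share was the higher.

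Joining members at most 100 kb apart left 1408 members on their own and 247 pairs. The longest run held 13 members over 477.5 kb of chromosome 7, from 80094627 to 80572088, among 29 regions called with all 3 EV antibodies and 9 called in all 6 lists. There was no BORIS-only region in it, and 8 of those 9 shared regions had a centred log2 ratio of BORIS to EV pileup below 0, with a median of −0.38. The next run held 10 members over 295.3 kb of chromosome 14, from 25556303 to 25851621, and includes the region at 25759442 described above. All 5 regions of all 6 lists inside this run were lower in BORIS cells, with a median of −0.99 and a range of −1.42 to −0.34. The third run held 9 members over 263.9 kb of chromosome 8, from 123331716 to 123595629, and its 4 regions of all 6 lists had a median of −0.68. In a run of 8 members on chromosome 14 all 6 such regions were below 0, with a median of −0.30, and in a run of 7 on chromosome 14 the median of 4 was −0.04. Of the 5 runs of 6 members, 4 held regions of all 6 lists, and their medians were −0.52 on chromosome 8, −0.30 on chromosome 14, −0.26 on chromosome 7 and 0.12 on chromosome 13. Whole-chromosome medians of such regions were −0.39 on chromosome 14, −0.25 on chromosome 8, −0.14 on chromosome 7 and 0.03 on chromosome 13. The chromosome 14 runs of 8, 7 and 6 members thus lay above the value of their chromosome.

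The megabase with most members was on chromosome 14, from 26000001 to 27000000. It held 15 members and 1 BORIS-only region among 82 regions called with all 3 EV antibodies. Of its 42 regions of all 6 lists, 33 had a centred log2 ratio below 0, and the median was −0.42. This was close to the whole of chromosome 14, where 1171 of 1487 such regions (78.7%) were below 0, with a median of −0.39. Of 2301 such bins with a region called with all 3 EV antibodies, 1124 held a member, and the 98 bins with at least 5 held 613 members (25.9%).

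Chromosomes differed in how many of their EV cohesin regions were private. The share of the regions called with all 3 EV antibodies was 11.2% (9.94 to 12.5) on chromosome 14, with 273 members. It was 6.62% (5.80 to 7.51) on chromosome 8, 5.69% (5.01 to 6.43) on chromosome 7 and 5.37% (4.56 to 6.28) on chromosome 12. The lowest share was 1.74% (1.37 to 2.20) on chromosome 4, with 71 members. The share of members over 300 bp wide, 29.8% in the whole class, was 37.7% (32.0 to 43.8) on chromosome 14, 29.7% on chromosome 8, 37.4% (31.3 to 43.9) on chromosome 7 and 32.9% on chromosome 12. It was highest on chromosome 18, with 44.0%, and lowest on chromosome 2, with 18.98%.

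Regions called in all 6 lists, none of which is a member, were lowest in BORIS cells on the same 4 chromosomes. Their centred median log2 ratio of BORIS to EV pileup was −0.39 on chromosome 14, −0.25 on chromosome 8, −0.18 on chromosome 12 and −0.14 on chromosome 7, and 0.22 on chromosome 4. Each antibody gave nearly the same value, with −0.40 with SMC1, −0.38 with RAD21 and −0.38 with SMC3 on chromosome 14. A pileup counts fragments, so less cohesin on each DNA copy and fewer DNA copies cannot be told apart in these lists. Where summits lay within 10 bp, the mean log2 ratio of BORIS to EV background on chromosome 14 was −0.007 (SMC1), −0.014 (RAD21) and −0.011 (SMC3). A single background track scaled to each library would give this whatever the DNA copies, and whether one was used is not given. Copy number was not tested. Clone, line and BORIS cannot be told apart with 1 clone.

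**Figure D4:**
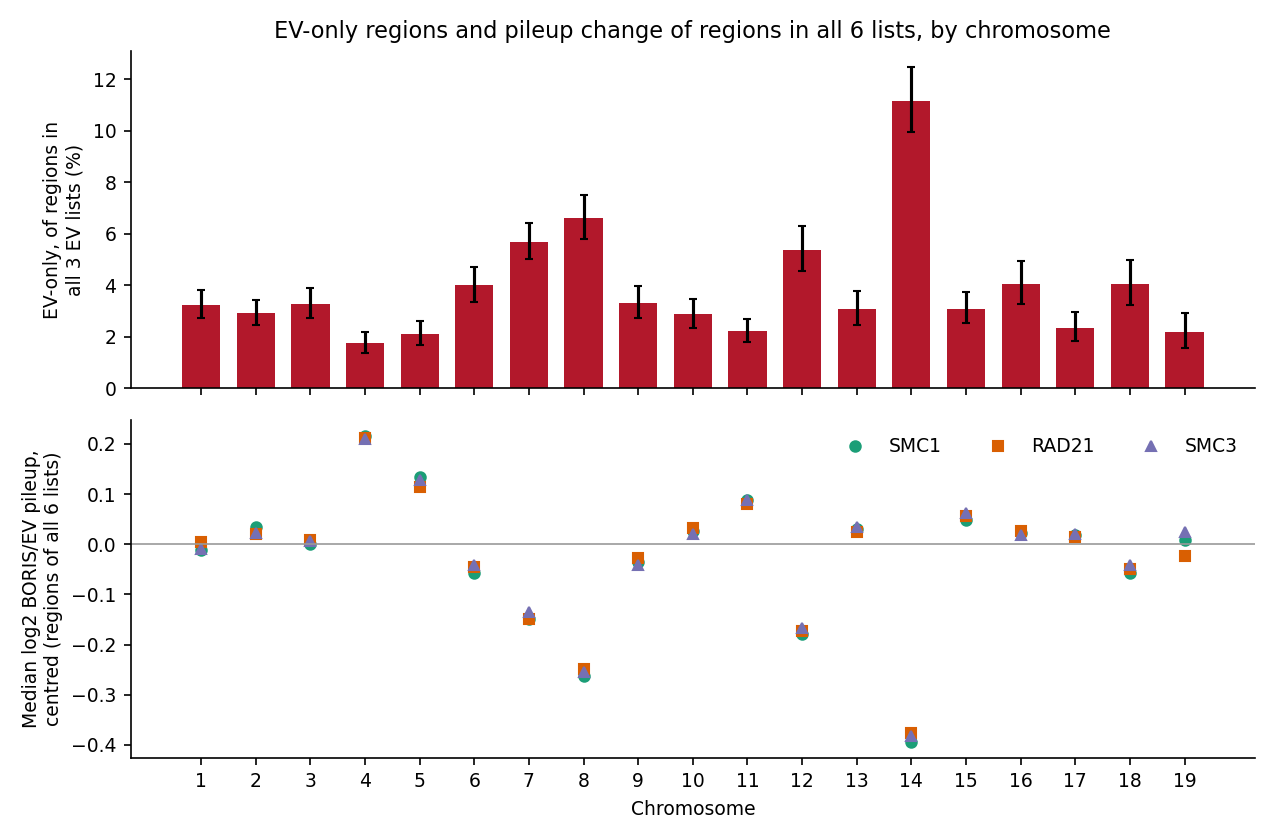
Top, EV-only regions as a share of the regions called with all 3 antibodies in EV cells (%), by chromosome, with exact 95% intervals. Bottom, median log2 ratio of BORIS to EV pileup at regions of all 6 lists, centred on the median over all chromosomes, for each antibody. Chromosome 14 has the highest share (11.2%) and the lowest ratio, and chromosome 4 the lowest share (1.74%) and the highest ratio.

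The same was seen at the nearest neighbours of members, a measure added after the chromosome values had been seen. The region of all 6 lists nearest to a member had a centred median log2 ratio of −0.15 (−0.17 to −0.13), and 64.2% (62.2 to 66.1) of these neighbours were below 0. The nearest to a BORIS-only region had a median of 0.09 (0.08 to 0.11). Without chromosomes 7, 8, 12 and 14 the EV-only value was −0.06 (−0.09 to −0.03) over 1484 members, against 0.04 for all regions of all 6 lists there and 0.11 for BORIS-only regions. On chromosome 14 alone the neighbours of members had a median of −0.40 (−0.47 to −0.34), close to the −0.39 of all regions of all 6 lists on that chromosome. Over 242 bins of 10 Mb, the number of members per 100 regions with all 3 EV antibodies had a Spearman correlation of −0.58 with the median log2 ratio of regions of all 6 lists, and of −0.41 over the 195 bins off those 4 chromosomes. Bins of a chromosome share their libraries and are not independent.

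The members with the firmest calls had the tightest summits. In 152 members (6.41%) the −log10 q was at least 10 with all 3 EV antibodies. Their summits lay 24 bp (22 to 26) apart, against 46 bp (44 to 48) in the other 2219. Of these, 79 (52.0%) were on chromosomes 7, 8, 12 and 14, against 36.4% of the others, and 29 were on chromosome 14. The nearest region of all 6 lists had a centred median log2 ratio of −0.26 (−0.32 to −0.19), against −0.15 (−0.17 to −0.13) for the others. Over all regions of all 6 lists the median was −0.22 on chromosomes 7, 8, 12 and 14 and 0.04 off them. The contrast between firm and other members was not matched by chromosome.

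Snf2h, measured in other cells and not used to choose the members, was rarely found at them. A wild-type CH12 Snf2h region overlapped 39 members (1.64%, 1.17 to 2.24) and a mutant CH12 region 50 members (2.11%, 1.57 to 2.77). Over all merged cohesin regions these shares were 4.04% and 5.63%, and over regions of all 6 lists 8.23% (7.997 to 8.48) and 10.6% (10.3 to 10.8). BORIS-only regions, with 44 (1.24%, 0.903 to 1.66) and 59 (1.66%, 1.27 to 2.14), had overlapping intervals with the members in both lists. Counting a Snf2h region within 1 kb, the member shares were 3.501% (2.80 to 4.32) for wild type and 5.69% (4.795 to 6.70) for the mutant, against 11.6% and 15.1% in regions of all 6 lists and 4.51% (3.85 to 5.25) and 6.60% (5.81 to 7.47) in BORIS-only regions. With Snf2h regions held to a −log10 q of 10 or more, 3 members (0.127%, 0.0261 to 0.369) and 9 members (0.380%, 0.174 to 0.719) had an overlap, against 0.944% and 1.72% of regions of all 6 lists and 0.310% and 0.480% of BORIS-only regions. With that limit on every cohesin list instead, the member shares rose to 3.10% (2.35 to 4.01) for wild type and 3.65% (2.84 to 4.63) for the mutant. The other classes are not given at that setting.

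Part of the gap to regions of all 6 lists went with cohesin pileup. At a lowest pileup of 5 to 8 the wild-type shares, 2.02% (0.660 to 4.66) of members and 1.22% (0.333 to 3.09) of regions of all 6 lists, overlapped, as did the mutant shares of 1.62% (0.443 to 4.09) and 3.96% (2.13 to 6.68). Where the lowest pileup was 9 to 11, wild-type Snf2h overlapped 0.949% (0.435 to 1.79) of members and 2.56% (1.98 to 3.25) of regions of all 6 lists, and mutant Snf2h 1.37% (0.732 to 2.33) and 3.58% (2.89 to 4.38). At 12 to 15 the wild-type shares were 1.35% (0.675 to 2.40) and 3.33% (2.89 to 3.81), and the mutant shares 2.21% (1.31 to 3.46) and 5.29% (4.74 to 5.89). At 16 to 21 they were 3.595% (1.81 to 6.34) and 4.93% (4.49 to 5.40), which was not distinguishable with 11 overlapping members. The mutant shares at 16 to 21 were 3.92% (2.04 to 6.75) and 7.61% (7.07 to 8.18), which did not overlap. At 22 to 39 the 52 members had 5.77% (1.21 to 15.9) with either list, and the intervals contained the 6.76% and 9.16% of regions of all 6 lists. Regions of all 6 lists are also wider, which favours an overlap. Among regions of at most 200 bp the wild-type shares were 1.89% (1.04 to 3.15) in members and 3.13% (1.76 to 5.10) in regions of all 6 lists, with overlapping intervals. Among regions over 200 and up to 300 bp wide the wild-type shares were 1.41% (0.751 to 2.39) and 3.14% (2.78 to 3.53), and the mutant shares, 2.27% (1.41 to 3.45) and 3.15% (2.79 to 3.54), overlapped. From there up to 500 bp the gap was wider, with wild-type shares of 1.92% (0.964 to 3.41) in 572 members and 6.86% (6.52 to 7.22) in regions of all 6 lists, and mutant shares of 3.32% (2.01 to 5.14) and 7.45% (7.09 to 7.82). In the 134 members over 500 bp the shares were 0.746% (0.0189 to 4.09) for wild type and 2.24% (0.464 to 6.40) for the mutant, against 11.6% and 16.5% in regions of all 6 lists of that width.

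**Figure D5:**
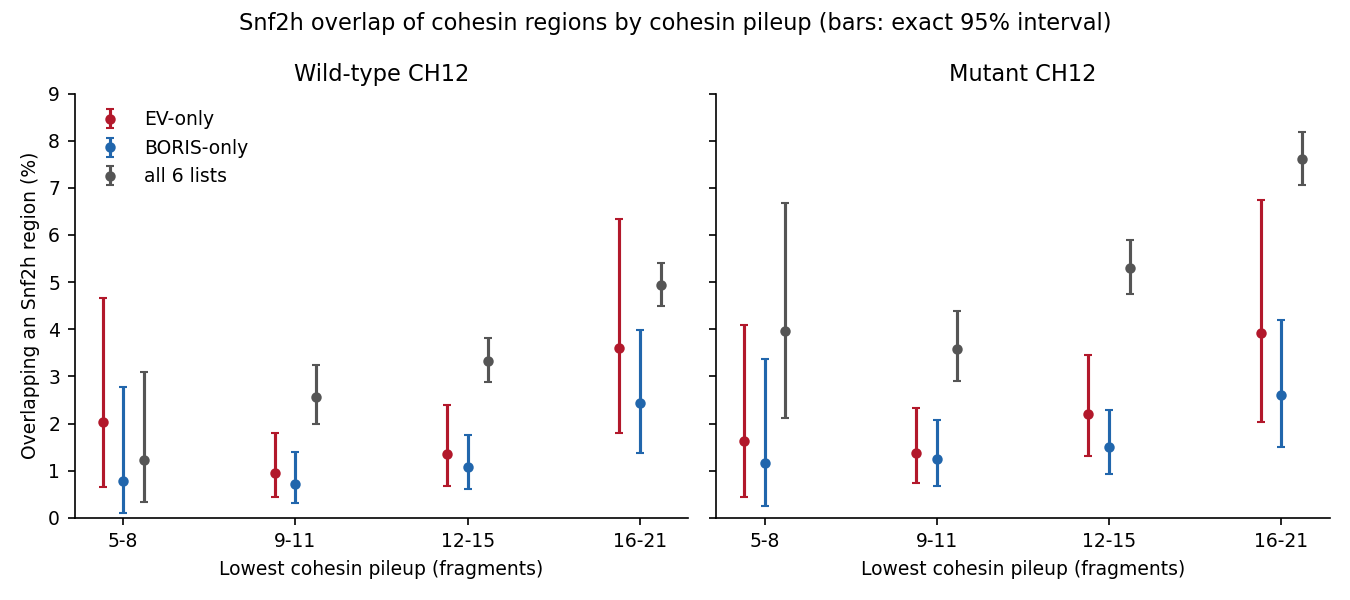
Share of cohesin regions that overlap a Snf2h region of wild-type (left) or mutant (right) CH12 cells (y axis, %), by the lowest cohesin pileup over the 3 antibodies (x axis, fragments), with exact 95% intervals. EV-only (red) and BORIS-only (blue) regions overlap within their intervals at each pileup, and regions of all 6 lists (grey, EV pileups) are higher between 9 and 15 fragments in both panels.

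An overlap with regions this narrow places the Snf2h and cohesin summits near each other, so their distance is a description. The median distance from the RAD21 summit to the Snf2h summit was 60 bp (34 to 76) in the 39 members with wild-type Snf2h, of which 32 (82.1%) were within 100 bp. It was 93.5 bp (69 to 126) in the 50 with mutant Snf2h, of which 28 were within 100 bp. In regions of all 6 lists the medians were 80 bp (78 to 83) and 99.5 bp (96 to 102), over wider regions, and in BORIS-only regions 87 bp (72 to 157) and 75 bp (58 to 115). Ranked within their own lists, the Snf2h regions at members had a median percentile of 34.4 (21.6 to 54.8) in wild type and 36.4 (24.4 to 50.04) in the mutant. Regions of all 6 lists had 45.2 and 45.4, inside both intervals, and BORIS-only regions had 61.4 (47.3 to 70.0) and 61.5 (48.0 to 68.5), with intervals that overlapped those of the members.

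Both CH12 lists had a Snf2h region at 20 members, wild type alone at 19 and mutant alone at 30. Ordered by the lowest of the 3 percentile ranks of −log10 p, the first of the 20 was on chromosome 5 at 110805898 to 110806104, with cohesin pileups of 23, 22 and 23 for SMC1, RAD21 and SMC3 and call limits of 8, 7 and 7 in BORIS cells. The second was on chromosome 6 at 100815888 to 100816101, with pileups of 32, 20 and 31 and summits within 9 bp. The third was on chromosome 18, with pileups of 19, 24 and 35. CH12 cells are B cells and NIH3T3 cells are fibroblasts, so these overlaps are between different cells.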

How the data were processed

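ChIP-seq region lists from 8 mouse samples, 6 for cohesin in NIH3T3 cells and 2 for Snf2h in CH12 cells, were used, and the other 22 samples were not analysed here. The submitters' processing notes name Bowtie, Bowtie2 2, SAMtools, MACS2 and deepTools 3.5.0, without roles, and the builds mm9 and hg19. The lists reach position 197182423 on chromosome 1, past the last GRCm38 gene end there (195291439). The control, the filters and the pooling of replicates were not given in the sources used here.

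The deposited lists have 10 columns and no header, in the narrowPeak layout. For each region the authors deposited a score, a fold over the local background, a −log10 p, a −log10 q and the summit. These are the authors' values and serve to rank or filter within a list. Pileup and background rate were solved from fold and −log10 p, taking p as a Poisson tail. The fold was taken as the ratio of pileup to background rate after the same small constant was added to both, so it is below their plain ratio. The pileup came out whole, within 0.001 in −log10 p, for 100% of cohesin summits with a −log10 p under 300.

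Lists were merged on chromosomes 1 to 19, and overlap means at least 1 bp. Summits compared are those of the strongest region of each list. Log2 ratios of BORIS to EV pileup are the median over the 3 antibodies, centred on all regions of all 6 lists. With 1 library per group there was no test. Named regions were the 12 members of highest rank (lowest of 3 percentiles by −log10 p, at most 3 kb wide, no BORIS region within 1 kb), the 3 of lowest −log10 q, the 3 regions just outside, the 3 strongest with Snf2h in both lists and the 1 Mb bin with most members. The members, lists and alternatives were chosen with earlier results of these data known. Merging, distances, overlaps and the recovery of pileups were tested on simulated lists. The call limit and the comparison of private classes under alternatives were added after seeing the data. Python 3.11.15, NumPy 2.4.6, pandas 2.3.3, SciPy 1.17.1 and Matplotlib 3.10.9 were used.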

Additional observations from a re-analysis of the deposited data

How the results depend on the processing

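Of 94 values under alternatives, 40 stayed within their interval (for the count, within 1.5 times) and 54 moved. The neighbours' log2 ratio, the only value that can change sign, stayed below 0 in its 11 alternatives. The alternatives for the neighbours' log2 ratio were chosen after seeing the data. Requiring a −log10 q of 10 or more of every list, the count was 1806, the median width 274 bp, the summit distance 27 bp, the distance to regions of all 6 lists 20514 bp, the share with another member within 100 kb 30.8%, wild-type and mutant Snf2h overlap 3.10% and 3.65%, and the log2 ratio of the nearest region of all 6 lists −0.11. With that limit for EV lists only, there were 152 regions, 247.5 bp wide, with summits 24 bp apart, 14450 bp from regions of all 6 lists, 9.21% with another within 100 kb, Snf2h overlap of 2.63% and 1.32%, and a log2 ratio of −0.22. The regions of all 6 lists are then also chosen with the stricter EV lists, and against those of the unfiltered lists the ratio of such members was −0.26. With at least 2 EV antibodies there were 7554 regions, and the values were 210 bp, 35 bp, 9115 bp, 69.9% and −0.12. With no BORIS region within 1 kb the width was 227 bp, the summit distance 41 bp, the distance 13506 bp and the share 33.6%. With equal numbers in every list the width was 250 bp, the summit distance 40 bp and the log2 ratio −0.13. Without chromosome 14 the share with another within 100 kb was 38.0% and the log2 ratio −0.12. Without 1 antibody (each left out once) there were 4983 to 6556 regions, widths of 207 to 210 bp, a summit distance of 28 bp, distances of 7034 to 9231 bp, shares of 58.1 to 66.1% and log2 ratios of −0.13 to −0.12. By construction 2 lists admit more regions than 3, and the largest distance is then between 2 summits and not 3. Windows of 10 kb and 1 Mb gave 7.97% and 88.9% of members with a neighbour. Snf2h within 1 kb was at 3.501% (wild type) and 5.69% (mutant) of members, 11.6% and 15.1% of regions of all 6 lists and 4.51% and 6.60% of BORIS-only regions. With Snf2h regions held to a −log10 q of 10 or more, the overlap was 0.127% and 0.380% of members. It was 0.944% and 1.72% of regions of all 6 lists and 0.310% and 0.480% of BORIS-only regions. The cause of the other moves was not tested. The planned motif and base content alternative was not run, since no mm9 genome was used here. No paired analysis was possible because each group had 1 library, and the labels number no replicates that could pair them. Where the lowest pileup was 5 to 8, 21.6% of regions lacked a BORIS call, and a missing call at such pileups does not show that cohesin was missing.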
